A study of Mus musculus with 18 samples.

Results

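RAW264.7 is a macrophage cell line of mouse origin, and the comparison described here is that of cultures given LPS together with MIC-1 against solvent controls, with 3 RNA-seq libraries in each group. LPS is the outer membrane glycolipid of Gram-negative bacteria that macrophages sense through Tlr4. MIC-1, moringa isothiocyanate-1, is an isothiocyanate from the seeds of Moringa oleifera. Every gene whose mean FPKM (fragments scaled to transcript length and library depth) over these 6 libraries was above 1 was tested, which gave 9870 of the 21441 genes in the macrophage table. The series holds 18 libraries, of macrophages and of liver, and the LPS-only libraries were left out of this comparison because one of them is doubtful. The column headers and the series' design give the cultures 10 µM MIC-1. The labels of the same samples instead give the doses of a mouse experiment, 10 mg/kg LPS and 80 mg/kg MIC-1, and the strain C57BL/6, with 3 days of MIC-1 by gavage ahead of LPS and collection at 16 h. The 2 accounts conflict, the study's methods name the RAW264.7 line, and the LPS concentration of the sequenced cultures is not given in the sources used here. The 2 groups differ in both agents and no group was given MIC-1 alone, so the part of LPS and the part of MIC-1 in any difference below cannot be told apart.

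When LPS binds Tlr4 with Cd14 and Ly96, macrophages signal through Myd88 to NF-κB and the MAP kinases and through Ticam1 to the interferon regulatory factors. The first branch drives cytokine and chemokine genes, and the second drives interferon beta and the genes it induces. Isothiocyanates are electrophiles that modify Keap1, which otherwise holds the transcription factor Nrf2 (gene Nfe2l2) for degradation. Freed Nrf2 binds antioxidant response elements in the promoters of genes for glutathione synthesis, thioredoxin reduction, quinone reduction and heme breakdown.

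Limma called 1553 genes, 746 higher and 807 lower with LPS+MIC-1. A call needed a limma adjusted p under 0.01 and a Log2FC beyond 1 in either direction. Log2FC here is LPS+MIC-1 minus control, from group means of log2(FPKM + 0.5), a scale on which weakly expressed genes appear to change less than they did. The called genes were 15.7% of those tested, with 7.56% called higher and 8.18% called lower. The filter used the mean over both groups, so a gene near 0 in a group could pass through the other group alone. Of the genes called higher, 134 had a control mean below 1 FPKM, and of those called lower, 84 had an LPS+MIC-1 mean below 1. Shares and medians of the lists below hold for tested genes only. The rises reached further than the falls. A Log2FC above 4 was found in 38 called genes and one below -4 in 1. The median standard error was 0.112 and the median Log2FC over all tested genes was -0.04. The FPKM ranges of the 2 groups did not overlap for 6569 genes (66.6%), the 1553 called genes among them. For a single gene, the smallest p-value that an exact two-sided permutation test of 3 against 3 libraries can give is 0.1. When each library was given an equal total FPKM, the median Log2FC moved to -0.21 and the calls became 583 higher and 1099 lower, so that 34.7% were higher in place of 48%. Directions below are therefore relative to the scale as deposited. The called share was 14.8% of genes with a mean FPKM from 1 to 5 and 20% of those above 100.

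**Figure D1:**
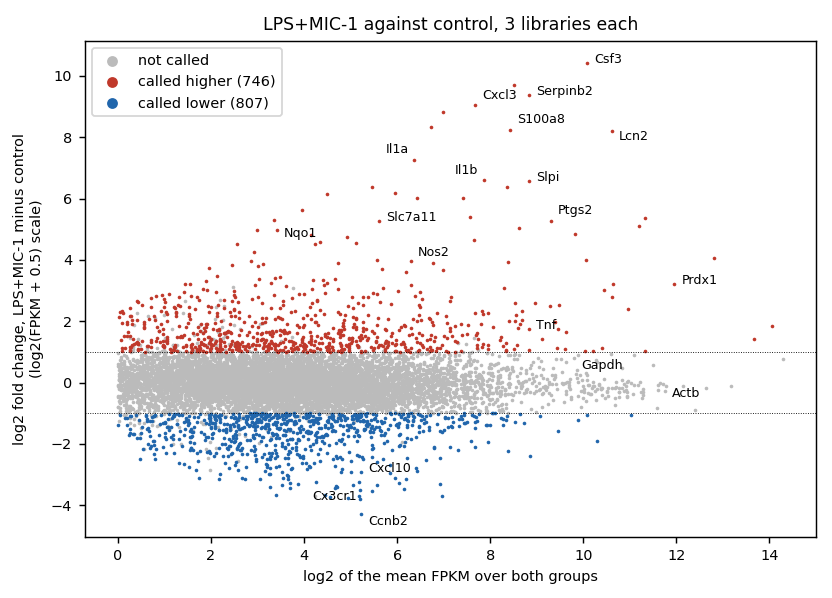
Log2FC of each tested gene (y axis, LPS+MIC-1 minus control on the log2(FPKM + 0.5) scale) against the log2 of its mean FPKM over both groups (x axis). Red points are the 746 genes called higher and blue points the 807 called lower; Csf3, at 10.41, lies highest and Ccnb2, at -4.29, lowest.

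The columns carry no replicate number, so libraries are numbered by their order in the table. Libraries 1 and 3 of each group lay close together and library 2 stood apart. Their squared differences were 2.3 times (control) and 1.98 times (LPS+MIC-1) the sampling variance, whereas pairs with library 2 lay at 10.54 to 16.44 times. Control library 2 lay 14.4% of the way towards LPS+MIC-1, and LPS+MIC-1 library 2 lay 17% of the way towards control, each over 2065 genes. Nothing in the sources says that the libraries are separate cultures, so the p-values measure the spread between these libraries, which may be technical. With libraries 1 and 3 averaged as 1 sample, 1050 genes were called, 508 higher and 542 lower. With libraries 1 and 3 alone, 1938 were called, of which 1866 had the same direction in library 2 and 1078 were past a Log2FC of 1 there. The FPKM sums were 557136 to 592848 in control and 647770 to 652486 with LPS+MIC-1, and the depth estimated from the steps of low values was 19400000 to 25100000 reads when the longest transcript of each gene set its length and 12700000 to 15900000 with the median transcript. The macrophage markers Emr1, Csf1r, Itgam, Lyz2, Sfpi1, Fcgr1 and Msr1 were present in all 6 libraries, and Cd68 has no row. Emr1 and Itgam were called higher (Log2FC 2.06 and 2.26) and Csf1r lower (-1.17). Lyz2, Sfpi1, Fcgr1 and Msr1 were not called. The summed FPKM of 7 neutrophil markers (Cxcr2, Elane, Mpo, Ngp, Camp, Ltf and Cd177) was 0.88 to 1.15 in control and 2.03 to 2.54 with LPS+MIC-1, with Ltf listed at 0 throughout. That of 5 hepatocyte markers was 3.11 to 7.56 and 4.74 to 6.88, with Alb at 1.09 to 2.76 FPKM over all 6 libraries. The part of these genes in the results was not tested. In bulk libraries, fewer cells of a type and less RNA per cell cannot be told apart.

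The promoters of a few genes described below are shown first. Whether their motifs bear on any change was not tested. Sequences are from RefSeq on GRCm38.p6 and run from 250 bases before to 50 bases after a gene's start, and a match is a description of the letters and not of binding. The genes of mitosis fell as a set (below), and many such genes carry a cell cycle homology region, TTTGAA, near their start. It was present on either strand in 17 of the 22 promoters of the called mitosis genes (77.3%), against 17.9% of all 32851 promoters, 12.2% of those of tested genes, 24.7% of those of genes called lower and 11.5% of those called higher. The promoters of Ccnb2 (chr9:70421505-70421804, minus strand) and Plk1 (chr7:122159185-122159484, plus strand) are shown with TTTGAA in capitals.
Ccnb2: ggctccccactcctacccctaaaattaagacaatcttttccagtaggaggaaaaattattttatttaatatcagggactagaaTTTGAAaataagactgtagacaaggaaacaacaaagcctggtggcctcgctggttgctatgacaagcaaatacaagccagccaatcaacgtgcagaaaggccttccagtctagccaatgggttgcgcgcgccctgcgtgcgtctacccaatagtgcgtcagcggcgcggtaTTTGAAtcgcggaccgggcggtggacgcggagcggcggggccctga
Plk1: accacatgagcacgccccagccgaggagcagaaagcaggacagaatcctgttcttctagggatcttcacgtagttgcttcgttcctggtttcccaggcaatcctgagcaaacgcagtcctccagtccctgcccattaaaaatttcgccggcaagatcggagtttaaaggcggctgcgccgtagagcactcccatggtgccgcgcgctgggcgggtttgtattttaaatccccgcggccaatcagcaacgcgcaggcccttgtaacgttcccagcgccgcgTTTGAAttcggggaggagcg

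An antioxidant response element has the core TGACNNNGC, where N is any base, and an overlapping form is TGANTCAGC. Of the 20 promoters of called Nrf2 pathway genes, 6 held the core (30%), against 12.4% of all promoters and 14.6% of those of tested genes. The form TGANTCAGC was in 3 of them (15%), those of Srxn1, Prdx1 and Osgin1, against 1.19% and 1.01%. It holds the AP-1 motif TGANTCA, which was in 9% of the promoters of genes called higher, 7.81% of all promoters and 4.91% of those of tested genes. The promoters of Srxn1 (chr2:152105274-152105573, plus strand) and Prdx1 (chr4:116685349-116685648, plus strand) are shown with this form in capitals; in Prdx1 the match is on the opposite strand.
Srxn1: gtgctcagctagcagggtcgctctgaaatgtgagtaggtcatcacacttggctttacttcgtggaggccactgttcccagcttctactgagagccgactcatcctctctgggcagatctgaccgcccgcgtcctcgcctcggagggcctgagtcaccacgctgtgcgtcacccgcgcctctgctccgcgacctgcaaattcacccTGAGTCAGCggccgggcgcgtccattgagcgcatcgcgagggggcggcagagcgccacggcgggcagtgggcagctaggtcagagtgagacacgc
Prdx1: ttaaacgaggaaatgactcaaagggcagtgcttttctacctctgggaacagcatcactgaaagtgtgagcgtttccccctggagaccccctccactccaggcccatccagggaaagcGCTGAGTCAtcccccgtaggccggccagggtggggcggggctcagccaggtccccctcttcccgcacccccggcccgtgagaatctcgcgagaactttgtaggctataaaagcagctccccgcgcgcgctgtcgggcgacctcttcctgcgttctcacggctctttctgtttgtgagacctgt

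The NF-κB consensus was in 3 of the 5 promoters found for chemokine genes called higher, against 4.51% of all promoters, 5.21% of those of tested genes and 6.96% of those called higher. It was in 2 of the 12 promoters of cytokine genes called higher (16.7%) and in 3 of the 20 of Nrf2 pathway genes called higher (15%). The neighbouring genes Cxcl2 (chr5:90903649-90903948, plus strand) and Cxcl3 (chr5:90785851-90786150, plus strand) carry the same 11 letters, in capitals, where matches on both strands overlap.
Cxcl2: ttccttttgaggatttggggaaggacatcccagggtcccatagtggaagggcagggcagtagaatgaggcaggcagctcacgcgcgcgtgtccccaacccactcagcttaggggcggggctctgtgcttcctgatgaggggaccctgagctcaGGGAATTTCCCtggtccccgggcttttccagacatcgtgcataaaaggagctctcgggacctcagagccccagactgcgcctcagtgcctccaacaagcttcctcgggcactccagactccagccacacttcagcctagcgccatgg
Cxcl3: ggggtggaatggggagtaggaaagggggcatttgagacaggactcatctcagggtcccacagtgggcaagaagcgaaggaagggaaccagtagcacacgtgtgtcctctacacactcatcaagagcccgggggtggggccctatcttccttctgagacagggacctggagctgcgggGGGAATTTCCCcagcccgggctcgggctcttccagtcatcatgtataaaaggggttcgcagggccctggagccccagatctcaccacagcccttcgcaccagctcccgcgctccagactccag

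**Figure D2:**
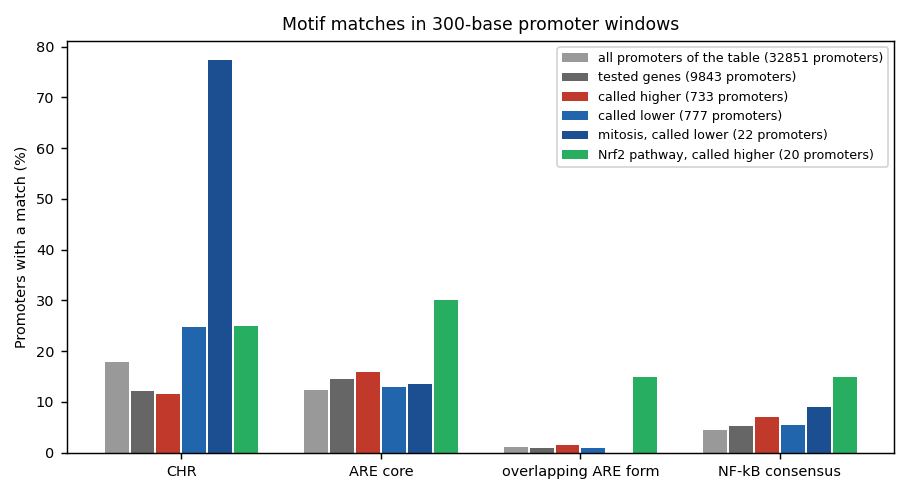
Share of 300-base promoter windows (y axis, %) that hold each motif on either strand, for all promoters of the RefSeq table, tested genes, called genes and called members of 2 gene lists. The cell cycle homology region (CHR) was in 77.3% of the promoters of called mitosis genes, against 17.9% of all promoters.

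The largest rise of a single gene was that of a secreted cytokine. Csf3, the gene of granulocyte colony-stimulating factor (mm9 chromosome 11, 98562577 to 98564943, plus strand), had 0.451, 1.77 and 1.35 FPKM under control conditions and 2191, 2084 and 2214 with LPS+MIC-1. Its Log2FC of 10.41 ± 0.30 (SE, limma adjusted p = 1.04e-05) had no equal among the tested genes. Of the 24 cytokine genes of a fixed list that are in the macrophage table, 20 were tested. Of these, 12 were called higher and 0 lower (60% called, against 15.7% of all genes). The median Log2FC was 2.45, against -0.04 over all genes. Il1a, Il6, Il23a, Il1f9 and Csf2 had control means of 0.240, 0.0462, 0.254, 0.528 and 0.103 FPKM. They passed the filter through the LPS+MIC-1 libraries, so the share and the median are partly set by the filter. The interleukin-1 alpha gene Il1a was at 0.115, 0.323 and 0.283 FPKM in control and at 236, 25.5 and 234 with LPS+MIC-1. The interleukin-1 beta gene Il1b was at 2.00, 5.83 and 1.84 and at 635, 81.7 and 664. Library 2 of LPS+MIC-1 was thus the lowest in both, by far, and in both the groups did not overlap. Their Log2FC values were 7.27 ± 0.84 and 6.61 ± 0.86 (SE, limma adjusted p = 0.000517 and 0.000844). With libraries 1 and 3 averaged as 1 sample that of Il1b was 5.88 and its call was lost (limma adjusted p = 0.012). Il1f9 (current symbol Il36g), another ligand of the interleukin-1 family, went the other way within its group, with 64.9, 128 and 70.1 FPKM with LPS+MIC-1 and at most 0.82 in control (Log2FC 6.38). The receptor antagonist gene Il1rn rose as well, from 45.1, 92.4 and 49.0 FPKM to 1909, 1396 and 1907.

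Il6, which encodes an inducer of the acute phase response, was at 0, 0.139 and 0 FPKM in control and at 59.0, 15.5 and 59.6 with LPS+MIC-1 (Log2FC 6.15, limma adjusted p = 0.00015). Tnf already had 165, 330 and 163 FPKM in control and 719, 658 and 709 with LPS+MIC-1. Its Log2FC was 1.75 ± 0.27 (SE, limma adjusted p = 0.00176), or 2.12 in libraries 1 and 3 and 0.99 in library 2, and its call was lost with libraries 1 and 3 averaged (limma adjusted p = 0.0212). The anti-inflammatory cytokine gene Il10 had 2.48, 3.00 and 2.58 FPKM in control and 7.99, 2.49 and 7.54 with LPS+MIC-1, so that library 2 lay within the control range. It was not called (Log2FC 0.89, limma adjusted p = 0.0931), but without LPS+MIC-1 library 2 it was (1.38, limma adjusted p = 0.000245). The interferon beta gene Ifnb1 was at or below 0.331 FPKM in every library and was not tested. In 11 of the 12 called cytokine genes LPS+MIC-1 library 2 was the lowest of its group, and in 12 control library 2 was the highest of its own.

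Of 23 listed chemokine genes 15 were tested, of which 9 were called higher and 2 lower (73.3% called, against 15.7% of all genes). The median Log2FC was 2.25. Among these genes Cxcl3, with a control mean of 0.205 FPKM, passed the filter through the LPS+MIC-1 libraries. The neutrophil attractant gene Cxcl3 (chromosome 5, 91215129 to 91217112, plus strand) was at 0.0974, 0.317 and 0.201 FPKM in control and at 509, 201 and 514 with LPS+MIC-1 (Log2FC 9.07 ± 0.37 SE). Its neighbour Cxcl2 was at 87.3, 210 and 99.3 FPKM and at 4957, 4929 and 5158 (5.35 ± 0.31 SE). The monocyte attractant gene Ccl7 rose from 5.12, 14.2 and 4.82 FPKM to 771, 429 and 750 (6.37). Ccl5, an attractant of T cells, was at 46.7, 101 and 90.4 FPKM in control and at 464, 219 and 461 with LPS+MIC-1. Its Log2FC was 2.25 ± 0.39 (SE, limma adjusted p = 0.00296), a call lost without LPS+MIC-1 library 1 or 3 (highest limma adjusted p = 0.0122). The 2 chemokine genes called lower are ligands of Cxcr3 that interferon induces. Cxcl10 (chromosome 5, 92775664 to 92777915, minus strand) fell from 64.5, 70.1 and 64.3 FPKM to 7.36, 11 and 7.33 (Log2FC -2.91 ± 0.16 SE, limma adjusted p = 4.7e-05). Cxcl11 fell from 4.09, 4.78 and 3.54 FPKM to 0.591, 0.244 and 0.539 (-2.29). The groups did not overlap in any of the 11 called genes, which holds for all 1553 called genes and adds nothing to the calls. Over all tested genes the ranges did not overlap in 66.6%.

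**Figure D3:**
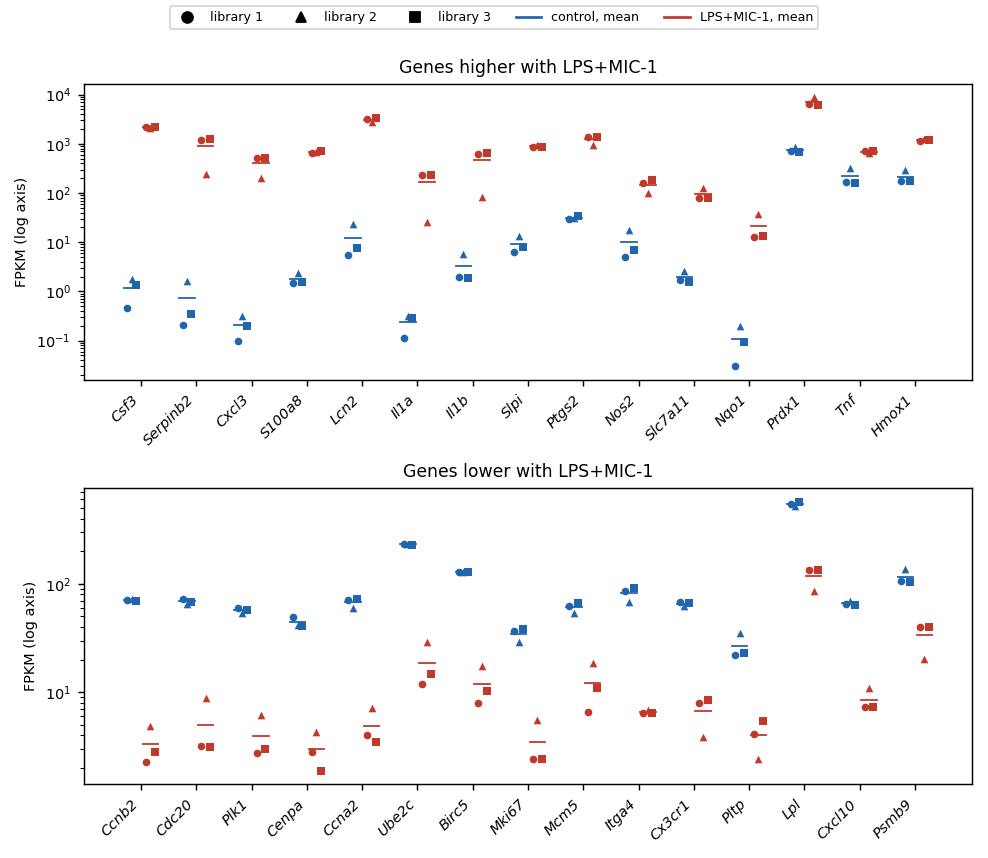
FPKM (y axis, log scale) of 15 genes higher and 15 genes lower with LPS+MIC-1 in each of the 6 libraries; symbols give the library number, colours the group and lines the group mean. Library 2 of LPS+MIC-1 (red triangles) lies below libraries 1 and 3 for Il1a, Il1b and Serpinb2 and above them for Nqo1, Slc7a11 and the mitosis genes.

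Genes of secreted antimicrobial proteins and of stefins, inhibitors of cysteine proteases, rose with the cytokines. Of 27 listed genes 12 were tested, of which 10 were called higher and 0 lower (83.3% called, against 15.7% of all genes). The median Log2FC was 6.11, or 5.64 without Gm5416, which was listed at 0 in every control library. Gm5483, Gm5416 and Stfa3 passed the filter through the LPS+MIC-1 libraries alone, so the share and the median are partly set by the filter. S100a8, which encodes a calcium-binding subunit of calprotectin (chromosome 3, 90472993 to 90473956, plus strand), was at 1.46, 2.40 and 1.54 FPKM in control and at 651, 676 and 718 with LPS+MIC-1. Its Log2FC of 8.24 ± 0.15 (SE) had the smallest adjusted p-value of all tested genes (limma, 4.92e-06). Lcn2, whose protein binds bacterial siderophores, was at 5.56, 23.4 and 7.67 FPKM and at 3223, 2742 and 3373 (8.20 ± 0.48 SE). The secreted protease inhibitor gene Slpi was at 6.33, 13.7 and 8.18 FPKM and at 877, 955 and 879 (6.58 ± 0.25 SE). These 3 genes varied little within the treated group. The stefin genes Gm5483 (Cstdc4), Gm5416 (Csta3) and Stfa3 lie together on chromosome 16 between 36184298 and 36455478. With LPS+MIC-1 Gm5483 was at 645, 933 and 599 FPKM, Gm5416 at 172, 434 and 160 and Stfa3 at 231, 185 and 223, and in control none of them exceeded 0.729. Pseudoalignment can divide reads between such similar genes in different ways, so their single values are uncertain. The acute phase gene Saa3 did not move with the rest. It was at 97.7, 193 and 93.1 FPKM in control and at 159, 59.6 and 149 with LPS+MIC-1 (Log2FC -0.10, limma adjusted p = 0.859). Of the 7 neutrophil markers summed above, Camp was at 0, 0.104 and 0.0995 FPKM in control and at 0.924, 0.924 and 0.957 with LPS+MIC-1. Cxcr2 was at 0.709 to 0.891 FPKM and at 0.953 to 1.48, and the other 5 were at or below 0.132 in every library.

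Of 17 listed genes of proteases and their inhibitors 11 were tested. Of these, 6 were called higher and 0 lower (54.5% called, against 15.7% of all genes). Serpinb2 and Mmp8 had control means of 0.734 and 0.114 FPKM, so they passed the filter through the LPS+MIC-1 libraries. Serpinb2, the gene of an intracellular plasminogen activator inhibitor (chromosome 1, 109408000 to 109432055, plus strand), was at 0.205, 1.65 and 0.350 FPKM in control and at 1204, 239 and 1274 with LPS+MIC-1 (Log2FC 9.36 ± 0.73 SE, limma adjusted p = 0.000125). The collagenase gene Mmp8 rose from at most 0.157 FPKM to 35.7, 21.4 and 35.2 (5.64). The gelatinase gene Mmp9 had 5.91, 26.0 and 5.92 FPKM in control and 160, 78.4 and 160 with LPS+MIC-1 (3.62). Its call was lost when control library 1 or 3 or LPS+MIC-1 library 1 or 3 was left out (highest limma adjusted p = 0.0104).

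Of 17 tested genes of prostaglandin, nitric oxide and itaconate synthesis, 9 were called higher and 0 lower. That is 52.9% called, against 15.7% of all genes. The median Log2FC was 1.45, and 3 of the genes not called lay below 0. Ptgs2, the inducible cyclooxygenase, was at 29.2, 31.2 and 33.8 FPKM in control and at 1399, 931 and 1373 with LPS+MIC-1 (Log2FC 5.25 ± 0.17 SE, limma adjusted p = 1.26e-05). Nos2, the inducible nitric oxide synthase, was at 5.12, 17.9 and 6.93 FPKM and at 158, 98.2 and 185 (3.96 ± 0.46 SE). Arg2, a mitochondrial arginase that uses the same substrate as Nos2, rose from 1.1, 1.30 and 1.12 FPKM to 36.8, 45.5 and 36.6 (4.58 ± 0.11 SE). Irg1 (Acod1), which makes itaconate, was at 82.6, 266 and 84.7 FPKM and at 2157, 1623 and 2184 (4 ± 0.45 SE). Control library 2 was the highest of its group in 8 of the 9 called genes.

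The receptors and adaptors that sense LPS moved far less than the genes above. Of 21 tested genes in this list 3 were called higher and 1 lower, 19% against 15.7% of all genes. Tlr4 itself had 9.34, 10.1 and 10.3 FPKM in control and 13.4, 12.2 and 12.8 with LPS+MIC-1 (Log2FC 0.35, limma adjusted p = 0.00643), under the minimum fold. The co-receptor gene Cd14 had 1481, 1585 and 1470 FPKM and 3136, 2273 and 3207 (0.91); without LPS+MIC-1 library 2 its Log2FC was 1.07 and it was called. The called gene with the largest rise was Irak3, an inhibitor of this signalling, from 4.52, 4.66 and 5.90 FPKM to 34.4, 22.2 and 33.7 (2.45 ± 0.19 SE). The RNA sensor gene Tlr7 fell from 23.0, 21.5 and 26.5 FPKM to 11, 12.0 and 10.3 (-1.06); without control library 3 it was at -0.98 and not called.

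Of 20 tested genes of NF-κB subunits and inhibitors, 4 were called higher and 1 lower (25% called, against 15.7% of all genes). Nfkbiz, a nuclear IκB protein, rose from 10.5, 17.2 and 11 FPKM to 63.7, 41.3 and 63.3 (Log2FC 2.08). Tnip1 and Rel followed at 1.76 and 1.63. The p65 subunit gene Rela had 29.3 to 30.7 FPKM in control and 31.1 to 33.7 with LPS+MIC-1 (0.10, limma adjusted p = 0.207, or -0.08 with an equal total FPKM in each library). Nfkbia, which encodes IκBα, had 112, 192 and 115 FPKM in control and 334, 199 and 334 with LPS+MIC-1, so library 2 of the treated group lay just above library 2 of the controls. It was not called (1.05 ± 0.28 SE, limma adjusted p = 0.0171). Without LPS+MIC-1 library 2 it was (1.30, limma adjusted p = 0.00603), as it was without control library 2. Tnip3 fell from 36.7, 35.2 and 36.7 FPKM to 15.1, 14.7 and 14.7 (-1.26).

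Genes induced by interferon lay mostly below control. Of 35 tested, 29 had a Log2FC below 0, against 5194 of all 9870 tested genes. The median of the 35 was -0.55, yet only 5 were called lower and 2 higher. That is 20% called, against 15.7% of all genes. These counts turned with the settings. With libraries 1 and 3 alone 5 were called higher and 1 lower, and with the same FPKM sum in every library 0 were higher and 10 lower. Ifi44 fell from 234, 222 and 243 FPKM to 94.5, 75.3 and 92.7 (Log2FC -1.41 ± 0.10 SE, limma adjusted p = 9.33e-05). Cmpk2 and Ifi47 were both at -1.49, calls that were lost without any 1 of the control libraries, that of Cmpk2 also without LPS+MIC-1 library 1 and that of Ifi47 also without LPS+MIC-1 library 2 or 3. The antiviral genes Rsad2 and Oasl1 were called higher (1.1 and 1.08), and both calls were lost without control library 1 or 3, that of Rsad2 also without LPS+MIC-1 library 1 or 3. Library 2 of LPS+MIC-1 was the lowest of its group in each of these 7 called genes, and the median Log2FC over the 35 genes was -0.24 in libraries 1 and 3 and -1.15 in library 2. The immunoproteasome subunits Psmb8, Psmb9 and Psmb10, which interferon gamma induces, were called lower at -1.13, -1.82 and -1.70. Psmb9 had 106, 136 and 103 FPKM in control and 40.0, 20.4 and 39.8 with LPS+MIC-1. The call of Psmb8 was lost without LPS+MIC-1 library 2 (-0.98). These 3 were also the genes called lower among 11 of antigen presentation (median -0.66). There the invariant chain gene Cd74 was called higher (1.07), a call lost without any 1 library other than control library 2. Of these 11 genes 36.4% were called, against 15.7% of all genes.

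Targets and partners of Nrf2 rose as a group. Of 31 tested genes, 19 were called higher and 1 lower (64.5% called, against 15.7% of all genes). The median Log2FC was 1.39. Among these genes Nqo1, with a control mean of 0.106 FPKM, passed the filter through the LPS+MIC-1 libraries. Slc7a11, the cystine transporter that feeds glutathione synthesis (chromosome 3, 50168858 to 50247535, minus strand), had control values of 1.69, 2.60 and 1.56 FPKM and reached 80.8, 125 and 79.7 with LPS+MIC-1. Its Log2FC was 5.28 ± 0.23 (SE, limma adjusted p = 2.55e-05). Nqo1, the quinone reductase (chromosome 8, 109912125 to 109927106, minus strand), was near 0 without treatment, at 0.030, 0.195 and 0.0923 FPKM, and at 12.6, 37.6 and 13.3 with LPS+MIC-1 (4.98 ± 0.41 SE). Prdx1, which removes peroxides and whose promoter is shown above, was already abundant in control, at 722, 872 and 691 FPKM, and reached 6438, 8925 and 6123 (3.22 ± 0.16 SE). The sulfiredoxin gene Srxn1 rose from 22.1, 26.0 and 22.4 FPKM to 130, 227 and 129 (2.71). Gclm, the modifier subunit of glutamate-cysteine ligase, rose from 24.8, 23.7 and 25.8 FPKM to 117, 225 and 113 (2.52). Hmox1, which degrades heme, rose from 179, 292 and 179 FPKM to 1167, 1274 and 1173 (2.51).

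The genes of the regulators themselves did not rise. Nfe2l2 had 61.0, 52.8 and 64.3 FPKM in control and 42.1, 48.3 and 42.3 with LPS+MIC-1 (Log2FC -0.42, limma adjusted p = 0.0104, not called). Keap1 fell from 37.1, 37.0 and 35.7 FPKM to 18.1, 17.1 and 17.4 (-1.04 ± 0.06 SE, limma adjusted p = 5.64e-05). The catalytic subunit gene Gclc, named after its values were seen, had 20.4, 20.1 and 21.4 FPKM and 24.2, 28.7 and 22.8 (0.28, not called), unlike its partner Gclm. In 17 of the 19 genes called higher, library 2 of LPS+MIC-1 was the highest of its group, while it was the lowest in 11 of the 12 called cytokine genes and in all 9 chemokine genes called higher. In the control group library 2 was the highest in 15 of these 19 genes, so the median Log2FC of the 19 was 2.35 in libraries 1 and 3 and 2.12 in library 2. For the 12 cytokine genes these medians were 5.29 and 3.43.

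**Figure D4:**
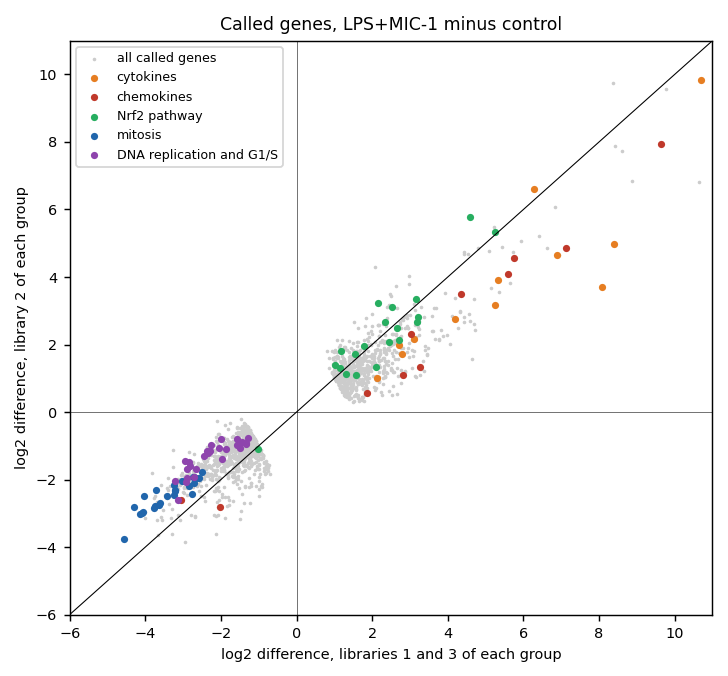
Log2 difference of LPS+MIC-1 minus control in library 2 of each group (y axis) against that in libraries 1 and 3 (x axis) for the 1553 called genes, with called members of 5 gene lists in colour; the line marks equal differences. Cytokine and chemokine genes lie mostly below the line, and mitosis and DNA replication genes, below 0 on both axes, lie above it.

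All 25 genes of the mitosis list were called lower, against 8.18% of all genes. Their Log2FC values ran from -4.29 to -2.26, with a median of -2.97. Ccnb2, a cyclin of mitotic entry (chromosome 9, 70255496 to 70269361, minus strand), had control values of 71.6, 72.7 and 69.6 FPKM and came down to 2.28, 4.90 and 2.80 with LPS+MIC-1. Its Log2FC of -4.29 ± 0.23 (SE, limma adjusted p = 4.7e-05) was the largest fall of all tested genes. Cdc20, an activator of the anaphase-promoting complex, was at 73.0, 65.5 and 68.4 FPKM and at 3.18, 8.83 and 3.10 (-3.80). Plk1, a kinase of spindle assembly, was at 60.5, 53.3 and 57.9 FPKM and at 2.77, 6.13 and 2.98 (-3.77). The proliferation marker gene Mki67 was at 36.4, 29.3 and 38.6 FPKM and at 2.40, 5.55 and 2.41 (-3.24 ± 0.30 SE). Cenpa, Ccna2, Ube2c, Ccnb1 and Birc5, all with roles in chromosome segregation or its timing, fell by 3.46 to 3.73 on the log2 scale. The groups were far apart in each of these genes, and the treated group's library 2 kept more than its libraries 1 and 3 in 24 of the 25. The mitosis counts were 24 or 25 genes when any 1 library was left out, with libraries 1 and 3 averaged and under both other scalings. In a fit that also held the 3 LPS libraries, which include the doubtful library, the count was 2. Ccnb2 was at 2.77, 70.0 and 2.45 FPKM in those 3 libraries.

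Genes of DNA replication and of entry into S phase fell less. Of 28 tested, 26 were called lower (92.9%, against 8.18% of all genes), with a median Log2FC of -1.87. The thymidine kinase gene Tk1 was at 105, 99.9 and 101 FPKM in control and at 12.2, 16.0 and 10.3 with LPS+MIC-1 (-2.97). Mcm10 and Gins1, components of the replication machinery, were at -2.82 and -2.64. The 2 genes not called, Cdt1 and Orc1, were at -0.68 and -0.72. The median over the 26 called genes was -2.32 in libraries 1 and 3 and -1.19 in library 2, in each of the 26 library 2 of LPS+MIC-1 was the highest of its group, and in 25 control library 2 was the lowest. With libraries 1 and 3 averaged as 1 sample, 14 of the genes were called. Of 17 tested genes of p53 and growth arrest 2 were called higher and 3 lower (29.4% called, against 15.7% of all genes). The cell cycle inhibitor gene Cdkn1a had 193, 240 and 187 FPKM in control and 256, 204 and 253 with LPS+MIC-1 (0.20, not called). Gadd45a was called higher, from 8.20, 13.9 and 8.55 FPKM to 84.7, 69.9 and 81.4 (2.92), and Gadd45g lower, from 24.4, 32.4 and 23.5 to 6.42, 8.07 and 6.48 (-1.86).

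**Figure D5:**
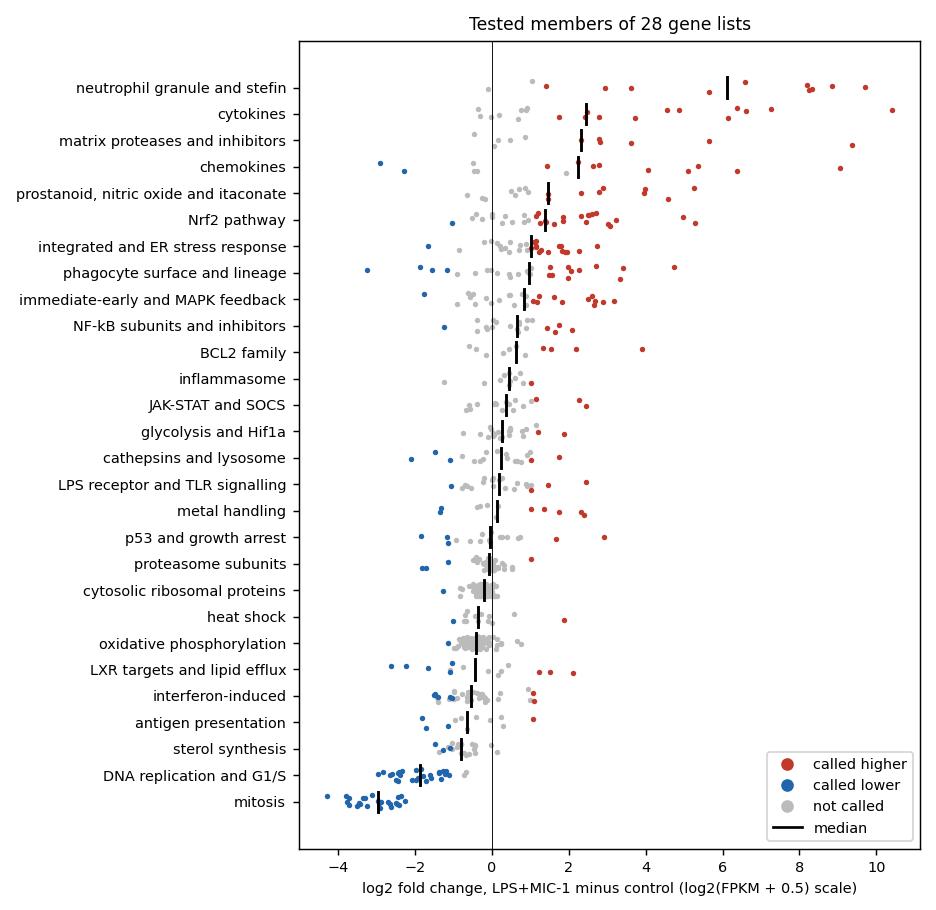
Log2FC (x axis, LPS+MIC-1 minus control) of the tested members of 28 gene lists, ordered by their median (black bar); red points were called higher, blue points lower. The medians run from -2.97 (mitosis) to 6.11 (neutrophil granule and stefin genes), and in mitosis all 25 genes were called lower.

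Of 29 tested genes of the integrated stress response and the unfolded protein response of the endoplasmic reticulum, 15 were called higher and 1 lower. That is 55.2% called, against 15.7% of all genes. The median Log2FC was 1.01. Ddit4, an inhibitor of mTORC1, rose from 2.90, 4.30 and 2.33 FPKM to 25.4, 20.4 and 25.1 (2.74). Ddit3, which encodes the transcription factor CHOP, rose from 71.1, 125 and 69.0 FPKM to 426, 375 and 424 (2.26). Trib3 rose from 11.1, 11.4 and 11.4 FPKM to 42.7, 52.6 and 41.0 (1.95 ± 0.10 SE). Xbp1, a transcription factor of the same response, had 82.7, 70.9 and 87.5 FPKM in control and 35.1, 14.8 and 30.4 with LPS+MIC-1 (-1.65); its call was lost without any 1 of the control libraries (highest limma adjusted p = 0.0174). Of 13 tested heat shock genes 1 was called higher and 1 lower (15.4% called, against 15.7% of all genes). Hspa4l was the higher (1.87). The mitochondrial chaperonin gene Hspd1 was the lower (-1.01), and it was not called without library 1 or 3 of either group. Hspa1b had 1.96, 3.64 and 2.65 FPKM and 1.33, 1.85 and 1.21 (-0.71, not called), and Hspa1a, with a mean FPKM of 1 or less, was not tested.

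Immediate-early genes and the phosphatases that limit MAP kinases were called higher in 11 of 26 cases and lower in 1. That is 46.2% called, against 15.7% of all genes. Dusp5, a phosphatase of ERK, rose from 11, 27.3 and 11.2 FPKM to 150, 125 and 144 (Log2FC 3.17), and the AP-1 subunit gene Fosl1 from 8.90, 14 and 9.44 to 71.2, 105 and 73.8 (2.90). Dusp2 fell from 25.1, 42.8 and 23.5 FPKM to 8.05, 9.44 and 7.53 (-1.76). Genes of the BCL2 family were called higher in 4 of 11 cases and lower in 0 (36.4% called, against 15.7% of all genes). The largest rise was that of Bcl2a1a (3.90), whose near-identical copies Bcl2a1b and Bcl2a1d can share its reads. Bcl2a1b was among the called genes too. Cytokine receptor signalling had 3 of 17 genes called higher and 0 lower (17.6% called, against 15.7% of all genes). They were Cish, Il4ra and Jak2, at 2.44, 2.26 and 1.16. Cish, with a control mean of 0.0211 FPKM, passed the filter through the LPS+MIC-1 libraries. In the inflammasome and necroptosis list 1 of 11 was called (9.09%, against 15.7% of all genes), Mlkl, at 1.02. It was under the fold limit without control library 3, LPS+MIC-1 library 1 or LPS+MIC-1 library 3.

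Surface receptors changed in both directions. Of 28 tested genes of phagocyte receptors and lineage factors, 11 were called higher and 4 lower (53.6% called, against 15.7% of all genes). The chemokine receptor gene Ccr1 rose from 1.03, 3.00 and 1.34 FPKM to 65.7, 40.8 and 69.8 (Log2FC 4.75 ± 0.35 SE). The co-stimulatory ligand genes Cd86 and Cd80 rose at 3.41 and 3.34. Cx3cr1, the fractalkine receptor (chromosome 9, 119957811 to 119977400, minus strand), fell from 67.9, 62.1 and 66.4 FPKM to 7.99, 3.85 and 8.43 (-3.25 ± 0.27 SE, limma adjusted p = 0.00015). Trem2, a lipid-sensing receptor of macrophages, fell from 185, 206 and 189 FPKM to 63.2, 68.1 and 64.8 (-1.56). Among the genes with the largest falls outside the cell cycle were Itga4, the integrin alpha 4 subunit, from 85.7, 67.5 and 91.8 FPKM to 6.44, 6.89 and 6.42 (-3.52 ± 0.12 SE), and Fgd2, an exchange factor for Cdc42, from 20.3, 19.1 and 20 to 1.09, 1.05 and 1.18 (-3.66 ± 0.08 SE). For Fgd2 the libraries of each group lay close together. For Itga4 those of LPS+MIC-1 did, while control library 2 was the lowest of its group.

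Genes of lipid handling went both ways. Of 14 tested LXR targets and genes of lipid handling, 5 were called lower and 3 higher (57.1% called, against 15.7% of all genes). A Log2FC below 0 was found in 8 of them, against 5194 of all 9870 tested genes. Their median was -0.43, or -0.12 in libraries 1 and 3 and -0.42 in library 2. The lipoprotein lipase gene Lpl fell from 540, 522 and 574 FPKM to 133, 86.0 and 133 (Log2FC -2.24), and the phospholipid transfer protein gene Pltp from 22.0, 35.4 and 22.9 to 4.15, 2.43 and 5.46 (-2.62). The cholesterol efflux pump gene Abca1 rose from 1.58, 2.28 and 1.85 FPKM to 12.2, 5.87 and 12.7 (2.10). Cd36 and Plin2 were called higher too, at 1.51 and 1.22, and the call of Plin2 was lost without library 1 or 3 of either group. Of 22 tested genes of sterol synthesis 21 had a Log2FC below 0, against the same 5194 of 9870, with a median of -0.81. Of these 22, 3 were called lower and 0 higher (13.6% called, against 15.7% of all genes). Idi1, an isomerase of that pathway, had 39.9, 20.1 and 41.3 FPKM in control and 8.54, 16.8 and 9.56 with LPS+MIC-1 (-1.49 ± 0.35 SE), a call lost without library 1 or 3 of either group. Library 2 of the 2 groups differed little there, and over the 22 genes the median was -1.07 in libraries 1 and 3 and -0.15 in library 2. With libraries 1 and 3 alone 12 were called lower, and leaving out 1 library gave 0 (without control library 1) to 9 (without control library 2).

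Few genes of the housekeeping machinery were called. Of 80 tested genes of oxidative phosphorylation 1 was called (1.25%, against 15.7% of all genes), Ndufs8, lower at -1.13. A Log2FC below 0 was found in 72 of the 80 (median -0.43), against 5194 of all 9870 tested genes. Of 77 cytosolic ribosomal protein genes 1 was called (1.3%), Rps19, lower at -1.27. Below 0 lay 67 of the 77, with a median of -0.20. Both medians kept their sign under the other scalings, at -0.39 and -0.17 with median of ratios and -0.60 and -0.39 with the same FPKM sum. Of 38 proteasome subunits, the 3 called lower were the immunoproteasome subunits above. Psmd11 was called higher (1.01), a call lost without either library 2. Of the 38, 10.5% were called, against 15.7% of all genes. In glycolysis the glucose transporter gene Slc2a1 rose from 76.3, 83.1 and 75.9 FPKM to 302, 254 and 308 (1.87 ± 0.09 SE). Bnip3 was the only other of 21 tested genes called (1.2, lost without any 1 library other than LPS+MIC-1 library 2). Of the 21, 9.52% were called, against 15.7% of all genes. Gapdh had 777, 877 and 840 FPKM in control and 906, 1083 and 1006 with LPS+MIC-1 (0.26, limma adjusted p = 0.0406), and Actb 3644, 3646 and 3701 and 3082, 3974 and 3140 (-0.12, limma adjusted p = 0.383). Of 12 genes of metal handling 5 were called higher and 2 lower (58.3% called, against 15.7% of all genes). The metallothionein gene Mt2 rose from 602, 633 and 621 FPKM to 4080, 2111 and 3995 (2.39), and the phagosomal metal transporter gene Slc11a1 from 65.9, 95.6 and 68.2 to 376, 382 and 380 (2.32). Among 18 genes of cathepsins and lysosomes 2 were called higher and 3 lower (27.8% called, against 15.7% of all genes). Ctsl was at 1.76 and Ctsf at -2.12.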

How the data were processed

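RNA of 3 control and 3 LPS+MIC-1 libraries of RAW264.7 cells was sequenced at BGI. The authors pseudoaligned the reads with Kallisto 0.45.0 to RefSeq transcripts of mm9, summed them per gene with tximport 1.8.0 and deposited FPKM values from DESeq2 1.20. The deposited tables of the authors' own comparisons (log2 fold changes and p-values) were not used. All columns of the macrophage table were matched to a group by name (0 left unmatched). Values were analysed as log2(FPKM + 0.5) with limma 3.58.1 (lmFit, eBayes with trend) in R 4.3.3, with Benjamini-Hochberg adjustment over the 9870 genes whose FPKM averaged more than 1, and the thresholds of the study. Since FPKM values are not counts, no count test was run. The fit was tested on simulated data.

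The comparison, the 28 gene lists and the rules were chosen with earlier results of these data known, so the lists are described by counts and medians without a test. Genes named are the 12 called genes with the largest Log2FC in each direction (groups not overlapping, mean FPKM of at least 5 in the higher group, no short RNAs), up to 3 called members per list and direction, and a set list of known genes. Il1rn, Il23a, Csf2, Gclc, Cdt1, Orc1, Saa3 and Osgin1 were named after their values were seen. Some symbols in the table were turned into dates and were not named. Depth was estimated from the steps between low FPKM values, 97.4 to 99.1% of which were whole multiples of 1 read within 0.05. Gene positions are from GENCODE M1 on mm9. Promoters were matched by symbol for 7839 of the 9870 genes. Alternatives were other pseudocounts, filters, scalings, libraries in the fit and thresholds. Other steps used pandas 2.3.3 and numpy 2.4.6 (Python 3.11.15), and figures matplotlib 3.10.9. Not every gene that the naming rule selects is reported here.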

Additional observations from a re-analysis of the deposited data

How the results depend on the processing

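No paired analysis was possible because the columns of the table carry no replicate number. The count of called genes kept within 1.5 times its value under all alternatives but a fit of all 9 macrophage libraries, which gave 576 genes (340 higher, 236 lower), and no minimum fold change, which gave 4195 (1957 higher, 2238 lower). The cause was not tested for the first, in which 1 LPS library adds to the shared spread; a fit of 8 libraries without it gave 1573. Leaving out 1 library gave 1329 to 1695 genes (626 to 822 higher, 703 to 891 lower). Of 117 named genes that were called, 93 stayed called whichever library was left out, 30 lost the call with libraries 1 and 3 averaged and 64 in the fit of 9. With a term for library 2 of each group, 1518 genes were called (730 higher, 788 lower) and the calls of Rsad2, Ifi47, Cmpk2, Idi1, Fdps, Plin2 and Fas were lost. No called named gene changed direction, and among those not called Rela did, at -0.08 with the same FPKM sum in every library. The mitosis genes called fell from 25 to 2 in the fit of 9. The median over the metal handling genes, 0.13, was -0.05 with the same FPKM sum in every library.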

Other observations

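The genes of this section were chosen after their values were seen, and those of this paragraph lie outside the lists. The next paragraph also holds genes named above or in the lists, such as Ccl5, Cxcl3, Cxcl2, Ifi47 and Nlrp3. Surface proteins stood among the largest rises that the lists do not cover. Clec4n, the lectin dectin-2, was at 1.39, 2.93 and 1.84 FPKM in control and at 210, 98.5 and 204 with LPS+MIC-1 (Log2FC 6.03). Pdpn, podoplanin, was at 3.08, 9.63 and 3.39 FPKM and at 315, 379 and 316 (6.01). Procr, the endothelial protein C receptor, was at 5.62, 14.9 and 6.75 FPKM and at 354, 410 and 350 (5.40). Tnfrsf1b, a TNF receptor, rose at 4.66, and Cd274, which encodes PD-L1, at 3.37. Polyamine enzymes rose too: Odc1, ornithine decarboxylase, from 283, 355 and 283 FPKM to 2764, 3088 and 2758 (3.23), and the spermine oxidase gene Smox at 2.65. Outside the cell cycle, the neighbouring membrane protein genes Tmem176a and Tmem176b fell by 3.40 and 3.12 on the log2 scale.

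Called genes of the same direction lay near each other at several places in mm9. Other tested genes between them were not considered and the tested genes in each interval were not counted. Over all tested genes 7.56% were called higher and 8.18% lower. On chromosome 11 between 83251188 and 83566144, 8 genes were called higher with gaps of at most 200000 bases, among them Ccl5, Ccl9, Ccl3, Ccl4 and Gm11428 (Wfdc17). On chromosome 11 between 114843588 and 114995306, 5 genes of the Cd300 family of immune receptors were called higher. On the same chromosome between 48675470 and 48910476, 5 genes that include the interferon-induced GTPase genes Irgm1, Tgtp2 and Ifi47 were called lower. On chromosome 5, Cxcl3 and Cxcl2 lie in such a group of 5 genes called higher. It starts with the alpha-fetoprotein gene Afp, at 3.81, 4.01 and 3.88 FPKM in control and 16.3, 32.9 and 17.5 with LPS+MIC-1 (2.30). Nlrp3 was listed at 0.0128, 3.88 and 0.0153 FPKM with LPS+MIC-1 and at 1.25, 2.46 and 2.55 in control, and was not called.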
